A study of Homo sapiens with 8 samples.

Results

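Expression of 34 genes of the lysosome was examined in RNA-seq of the Ewing sarcoma (EwS) cell line SK-N-MC. The genes were taken by symbol from a list of V-ATPase subunits, lysosomal membrane proteins, hydrolases and the TFEB family, a rule that uses names only. All 34 were found among the 60332 genes of the table, and 33 were among the 15372 genes tested, those that reached 1 FPKM (fragments per kilobase, scaled by library size) in 2 or more of the 8 libraries. The exception was CTSZ, the protease cathepsin Z, which was at 0 to 0.42 FPKM. The lysosome is the acidic compartment in which cells take apart proteins, glycans and lipids. Its pump, the V-ATPase, is a rotary machine built of a membrane sector (V0), which carries protons across, and a cytosolic sector (V1), which hydrolyses ATP, and the sectors can come apart to switch the pump off. The hydrolases work at the acid pH that the pump sets, most of them reach the lysosome on mannose 6-phosphate receptors, and the transcription factors TFEB, TFE3 and MITF bind the CLEAR motif, an extended E-box, in front of many of these genes.

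Of the 4 groups of 2 libraries, the first was SK-N-MC carrying empty dCas9-KRAB lentivirus, with no targeting guide, in normoxia (control normoxia), and the second was the same control cells in hypoxia (control hypoxia). Hypoxia was 1% O2 with 5% CO2 for 16 h. The remaining groups were hypoxic cells in which dCas9-KRAB, a repressor fused to inactive Cas9, was directed to the GGAA microsatellite enhancer of LOXHD1 by 1 of 2 guides (eKD1 and eKD2). The paper describes infection with virus at an MOI of 10, selection with puromycin at 1 µg/ml and use within 5 passages. These settings were taken to hold for the controls, which the paper also calls parental and for which it does not state them separately. Each guide was represented by 1 puromycin-selected population of 1 cell line, and the silenced cells were sequenced in hypoxia only, so an effect of a guide in normoxia was not measured here.

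LOXHD1 was at 155.8 and 168.5 FPKM in normoxia, 93.0 and 91.1 in control hypoxia, 17.3 and 15.0 in eKD1 and 11.7 and 11.8 in eKD2, and all 7 genes listed as a check of the hypoxia response were higher in hypoxia. All 9 EwS markers exceeded 1 FPKM. Lysosomal genes are abundant in macrophages, and of 7 macrophage markers 2 exceeded 1 FPKM, PTPRC and AIF1. PTPRC was at 22.5 and 23.8 FPKM in normoxia and at 4.87 and 5.39 in control hypoxia. AIF1 did not fall, at 12.5 and 10.9 FPKM in normoxia and at 12.5 and 12.7 in control hypoxia. The 7 markers summed to 35.1 to 35.3 FPKM in normoxia and 17.4 to 18.1 in control hypoxia, a fall that came from PTPRC. CD14, CSF1R and CD163 stayed below 0.5 FPKM, and TYROBP and FCGR3A were at 0 in all libraries. In bulk RNA, fewer cells of a type and less RNA per cell cannot be told apart. The libraries summed to 865107 and 877580 FPKM in normoxia and to 1041460 and 1018470 in control hypoxia, with the silenced cells between. Their relative depth, read from the lowest values, was 76.0% and 55.7% of the deepest library in normoxia and 100% and 96.1% in control hypoxia. Total and depth thus differed together with oxygen between the control groups. Read counts were not used here, so no counting interval could be set.

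Promoter sequences were examined first, because they show where the CLEAR and hypoxia motifs lie. RefSeq windows (GRCh38.p14) of 300 bases, 250 before to 50 after each start, were held for 24 of the 34 members. The E-box CACGTG, which is its own reverse complement, was present in at least 1 window of 9 of the 24 members (ATP6V0B, ATP6V0D1, LAMP1, CD63, MCOLN1, CTSA, CTSD, GAA and NEU1), a share of 37.5%, beside 8.77% of the 27305 genes with a window and 7.26% of all 35116 windows. The extended form TCACGTGA, also palindromic, was in 5 of the 24 members (20.8%), beside 1.18% of genes and 0.98% of windows. These promoters are shown because they carry that form, and ATP6V0B and CTSD because they carry the plain E-box close to the start. Each line gives the 100 bases before the RefSeq start, 5′ to 3′ on the strand of the gene, and capitals mark CACGTG together with the flanking bases where these complete TCACGTGA.
GAA, chr17:80101481-80101580, plus strand: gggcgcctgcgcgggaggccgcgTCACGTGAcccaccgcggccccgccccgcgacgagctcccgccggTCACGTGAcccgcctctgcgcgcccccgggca
MCOLN1, chr19:7522524-7522623, plus strand: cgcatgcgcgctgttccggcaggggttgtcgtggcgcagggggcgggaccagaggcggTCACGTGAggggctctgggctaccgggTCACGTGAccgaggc
CTSA, chr20:45891235-45891334, plus strand: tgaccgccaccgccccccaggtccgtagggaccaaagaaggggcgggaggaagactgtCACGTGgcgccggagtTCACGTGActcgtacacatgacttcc
LAMP1, chr13:113297139-113297238, plus strand: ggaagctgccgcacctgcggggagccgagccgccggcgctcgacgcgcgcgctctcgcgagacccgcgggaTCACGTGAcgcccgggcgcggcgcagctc
ATP6V0D1, chr16:67481158-67481257, minus strand: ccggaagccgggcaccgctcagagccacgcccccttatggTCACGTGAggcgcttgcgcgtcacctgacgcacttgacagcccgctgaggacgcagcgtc
ATP6V0B, chr1:43974860-43974959, plus strand: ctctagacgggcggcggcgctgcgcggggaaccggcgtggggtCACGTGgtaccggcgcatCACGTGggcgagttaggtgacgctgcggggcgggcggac
CTSD, chr11:1763928-1764027, minus strand: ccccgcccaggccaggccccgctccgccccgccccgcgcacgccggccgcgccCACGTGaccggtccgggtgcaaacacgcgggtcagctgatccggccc

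GAA and MCOLN1 each carried 2 copies of TCACGTGA, at 77 and 32 bases before the start in GAA and at 42 and 15 in MCOLN1. LAMP1 also carried 2 copies, of which 1 begins 2 bases before the start and runs past the end of the stretch shown, and held further plain E-boxes at 192, 176, 159 and 142 bases before the start. In CTSA a plain E-box at 42 bases stood beside the extended motif at 26, and in ATP6V0B the pair of plain E-boxes began 57 and 39 bases before the start. The hypoxia response core ACGTG, searched on both strands and contained in every CACGTG, was in the windows of 15 of the 24 members (62.5%, beside 24.9% of genes), and GCGTG was in 16 (66.7%, beside 40.6% of genes). A match is a string of letters in a fixed window and was not tested as a binding site.

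In control cells exposed to hypoxia, transcripts of 4 hydrolases or activators and of 2 membrane proteins rose, while 3 of the 4 membrane-sector subunits among the members fell. Some alternatives ended the call of GUSB among those that rose, and of ATP6V0A1 and ATP6V0E1 among those that fell. CTSB, GAA and SCARB2 more than doubled on the log2(FPKM + 1) scale on which all changes are given, PSAP, GUSB, LAMP2 and the pump subunit ATP6V1F rose by less, and ATP6V0A1, ATP6V0B, ATP6V1C1 and ATP6V0E1 fell. With limma on the 2 libraries of each group, 11 of 33 members (33.3%) passed an adjusted p of 0.05, 7 higher and 4 lower. The background over all genes tested was of the same size, with 32.2% called, 16.2% higher and 16% lower. It was higher among more similar genes. With protein-coding genes only, 42.6% of genes were called, beside 8 members higher and 4 lower of 33. With a mean of at least 5 FPKM, 39.4% were called, beside 7 higher and 3 lower of 30 members. The members as a group were thus not called more often than similar genes. Of the 9 members with an E-box among the 24 with a promoter window, GAA was higher, ATP6V0B was lower and the other 7 were not called. This share of 22.2% stands beside the 32.2% of all genes, a difference that was not tested in so few genes. The median change of the members was 0.004, beside 0.013 for all genes tested. The direction of the calls was uneven between roles. Among 12 pump members 1 was higher and 4 were lower, with a median of -0.19, and among the 13 hydrolases and activator tested 4 were higher and none lower, with a median of 0.27. This split was not tested as such. The 4 lower pump calls became 2 in a fit with no variance trend, and the median of the hydrolases and activator was 0.15 without the first control normoxia library. When the libraries were set to equal FPKM totals, which moved the median of all genes from 0.01 to -0.19 and the share of higher genes among all calls from 50.3% to 28.4%, the pump members gave 1 higher and 8 lower, and the hydrolases and activator 4 higher and 1 lower. Relative to the median of all genes, the pump median was -0.20 as deposited and -0.23 with equal totals, and that of the hydrolases and activator was 0.25 and 0.22.

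**Figure D1:**
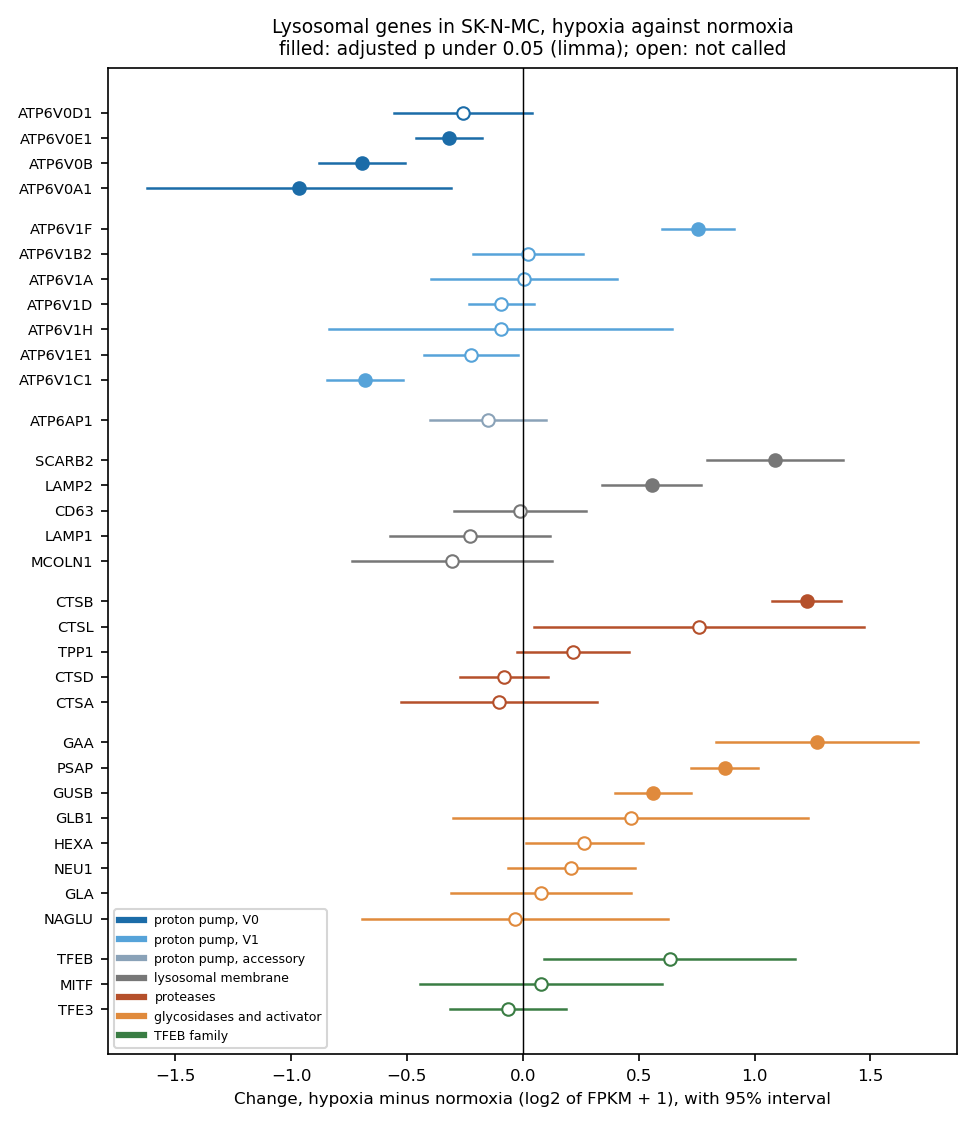
Change between control hypoxia and control normoxia for the 33 members tested, in log2(FPKM + 1) on the horizontal axis, grouped and coloured by role. Points are differences of the means of 2 libraries, lines are 95% intervals from limma, filled points passed an adjusted p of 0.05 (7 to the right of 0, 4 to the left), and all 4 members of the V0 sector lie to the left of 0.

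Among the proteases, CTSB, the cysteine protease cathepsin B (GRCh37 chr8:11700033-11727042, minus strand), was the most abundant and had the smallest adjusted p of the members. It was at 166.6 and 175.3 FPKM in normoxia, at 391.8 and 409.7 in control hypoxia, at 353.7 and 359.9 in eKD1 and at 375.1 and 364.0 in eKD2. The control groups stood far apart, and all 6 hypoxia libraries lay above both normoxia libraries (log2 change 1.22 ± 0.053 (SE), adjusted p = 0.00653). The other proteases were not called. CTSD, the aspartic protease cathepsin D, was at 141.1 to 178.6 FPKM over the 8 libraries with a change of -0.08 (95% interval -0.27 to 0.11). TPP1, a tripeptidyl peptidase, changed by 0.22 (adjusted p = 0.135) and CTSA, a carboxypeptidase that also protects NEU1 and GLB1 in a complex, by -0.10 (adjusted p = 0.63). CTSL, cathepsin L, was barely detected, at 0 to 1.94 FPKM.

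Of the glycosidases and their activator, 3 of 8 rose. GAA, the acid alpha-glucosidase that degrades glycogen in lysosomes (GRCh37 chr17:78075332-78093680, plus strand), had the largest fitted rise among the members, from a low level. It was at 4.75 and 5.36 FPKM in normoxia, at 14.97 and 12.3 in control hypoxia, at 11.4 and 8.24 in eKD1 and at 8.49 and 10.5 in eKD2, without overlap between normoxia and any hypoxia group (log2 change 1.27 ± 0.15 (SE), adjusted p = 0.0137). PSAP encodes prosaposin, the precursor of the saposins that present sphingolipids to their hydrolases (GRCh37 chr10:73576055-73611008, minus strand). It was the most abundant gene of this role, at 256.2 and 240.4 FPKM in normoxia, at 449.3 and 460.1 in control hypoxia, at 436.3 and 436.5 in eKD1 and at 423.9 and 394.4 in eKD2 (log2 change 0.87 ± 0.051 (SE), adjusted p = 0.00707). The replicates differed by far less than the groups. GUSB, the beta-glucuronidase (GRCh37 chr7:65425671-65447202, minus strand), was at 62.9 and 65.3 FPKM in normoxia, at 96.4 and 93.8 in control hypoxia, at 68.4 and 99.1 in eKD1 and at 82.95 and 68.4 in eKD2 (log2 change 0.56 ± 0.058 (SE), adjusted p = 0.0107). Its control libraries were tight but the eKD1 libraries were not, and in a fit that takes the spread from all groups the adjusted p was 0.0479 with 8 libraries and 0.129 to 0.163 when any of the 4 control libraries was left out.

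The remaining 5 glycosidases were not called in hypoxia. HEXA, the alpha subunit of beta-hexosaminidase, changed by 0.27 (adjusted p = 0.0981, and 0.0416 in the shared fit), NEU1, a sialidase, by 0.21, and GLB1, the beta-galactosidase, by 0.46 with a wide interval of -0.30 to 1.23. GLA, the alpha-galactosidase, and NAGLU, which degrades heparan sulfate, changed by 0.08 and -0.03. Measured changes of the role thus ran from -0.03 to 1.27.

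Of 5 lysosomal membrane members, 2 rose. SCARB2 (LIMP-2), the receptor that carries beta-glucocerebrosidase to the lysosome (GRCh37 chr4:77079890-77155689, minus strand), was at 27.2 and 23.8 FPKM in normoxia, at 57.6 and 52.7 in control hypoxia, at 48.2 and 58.1 in eKD1 and at 61.1 and 64.4 in eKD2. All hypoxia libraries were above both normoxia libraries (log2 change 1.09 ± 0.10 (SE), adjusted p = 0.00976). LAMP2, a heavily glycosylated protein of the lysosomal membrane needed for fusion with autophagosomes and for chaperone-mediated autophagy (GRCh37 chrX:119560003-119603220, minus strand), was at 28.9 and 27.9 FPKM in normoxia, at 43.4 and 41.1 in control hypoxia, at 36.3 and 39.7 in eKD1 and at 33.3 and 35.8 in eKD2 (log2 change 0.56 ± 0.075 (SE), adjusted p = 0.0163). Its relative LAMP1 was at 87.0 and 92.0 FPKM in normoxia and 68.7 and 84.7 in control hypoxia, with a change of -0.23 that was not called (95% interval -0.57 to 0.12). CD63, a tetraspanin of late endosomes and lysosomes, had the highest level of the 34 members, at 492.2 and 412.4 FPKM in normoxia, at 436.6 and 456.8 in control hypoxia, at 567.6 and 520.0 in eKD1 and at 404.9 and 426.5 in eKD2. Its control groups overlapped and the change was -0.01 (-0.30 to 0.27). MCOLN1, the calcium channel TRPML1 through which lysosomes activate TFEB, changed by -0.30 (adjusted p = 0.207).

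All 4 members of the V0 sector had lower means in hypoxia, and 3 were called. ATP6V0B, a proteolipid of the proton-carrying ring (GRCh37 chr1:44440159-44443967, plus strand), was at 179.6 and 180.7 FPKM in normoxia, at 116.3 and 105.9 in control hypoxia, at 144.1 and 136.2 in eKD1 and at 134.8 and 138.6 in eKD2 (log2 change -0.69 ± 0.066 (SE), adjusted p = 0.00976). The silenced cells lay between control hypoxia and normoxia. ATP6V0A1, an isoform of subunit a, which forms the proton path beside the ring (GRCh37 chr17:40610862-40674600, plus strand), was at 25.5 and 37.4 FPKM in normoxia, at 17.01 and 13.8 in control hypoxia, at 20.2 and 22.9 in eKD1 and at 24.4 and 24.3 in eKD2 (log2 change -0.97 ± 0.23 (SE), adjusted p = 0.0486). The normoxia libraries of ATP6V0A1 differed widely. Over the 13 alternatives its log2 change was -1.23 to -0.70, and 6 of them ended the call, with adjusted p values up to 0.149. ATP6V0E1, the small subunit e and the most abundant V0 member (GRCh37 chr5:172410774-172462448, plus strand, a span that also contains SNORA74B on the same strand), was at 184.3 and 193.2 FPKM in normoxia against 152.8 and 149.4 in control hypoxia (log2 change -0.32 ± 0.051 (SE), adjusted p = 0.0219). This call was ended by 2 of 13 alternatives, with adjusted p values up to 0.0699. ATP6V0D1, which joins the ring to the central stalk, changed by -0.26 and was not called (adjusted p = 0.145). Outside the members, ATP6V0C, the other proteolipid of the ring, was at 129.2 and 124.02 FPKM in normoxia against 124.6 and 138.1 in control hypoxia, overlapping and not called (log2 change 0.05, adjusted p = 0.625).

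Of 7 members of the V1 sector, 1 rose and 1 fell. ATP6V1F, a subunit of the central stalk and the most abundant V1 member (GRCh37 chr7:128502910-128505901, plus strand), was at 120.6 and 118.6 FPKM in normoxia, at 208.7 and 196.7 in control hypoxia, at 182.9 and 179.2 in eKD1 and at 172.9 and 180.1 in eKD2 (log2 change 0.76 ± 0.054 (SE), adjusted p = 0.00809). It was the only pump member called higher, and it overlaps KCP on the other strand, which a library without strand marks cannot separate. ATP6V1C1, subunit C, which links the stator to the catalytic head and leaves when the sectors part (GRCh37 chr8:104033291-104085279, plus strand), was at 80.4 and 78.3 FPKM in normoxia, at 49.1 and 49.2 in control hypoxia, at 51.7 and 56.9 in eKD1 and at 46.97 and 45.1 in eKD2. The normoxia libraries were above all 6 hypoxia libraries (log2 change -0.68 ± 0.058 (SE), adjusted p = 0.00867). The catalytic subunit ATP6V1A and its partner ATP6V1B2, which form the ATP-hydrolysing head, changed by 0.00 (-0.40 to 0.40) and 0.02 (-0.22 to 0.26). ATP6V1D and ATP6V1E1, of the central stalk and the peripheral stalks, changed by -0.09 and -0.22 (adjusted p = 0.231 and 0.0887), and ATP6V1H, the regulatory subunit H, by -0.10 with replicates that differed more than the groups. ATP6AP1, an accessory protein of pump assembly, was at 48.7 and 48.6 FPKM in normoxia, at 41.1 and 46.5 in control hypoxia, at 53.3 and 46.3 in eKD1 and at 52.5 and 48.9 in eKD2 with a change of -0.15 (adjusted p = 0.266).

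**Figure D2:**
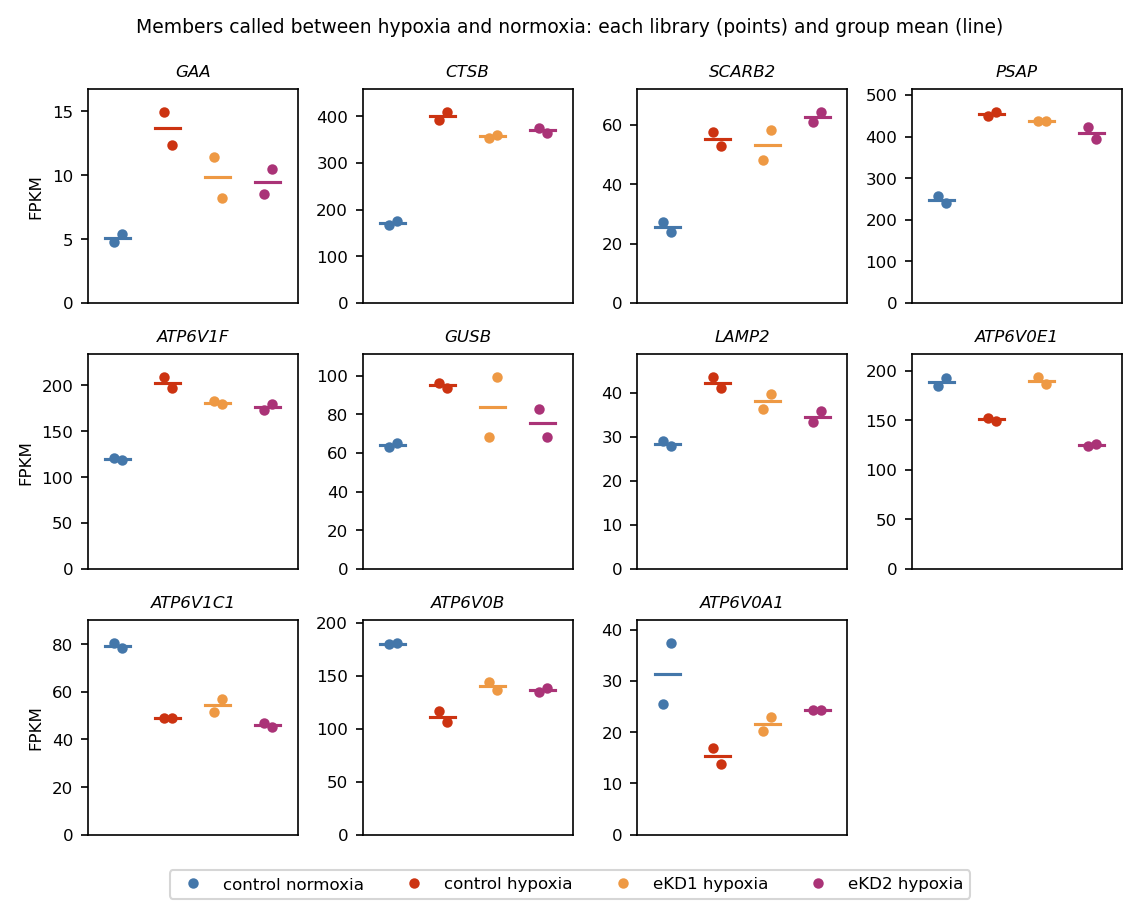
FPKM of the 11 members called between control hypoxia and control normoxia, one panel per gene ordered by the fitted change, with a vertical axis from 0 in each panel. Points are libraries and lines are means of 2 libraries in control normoxia, control hypoxia, eKD1 and eKD2. In CTSB all 6 hypoxia libraries, at 353.7 to 409.7 FPKM, exceed the normoxia libraries, and in ATP6V0E1 and ATP6V1C1 the eKD1 libraries lie above both control hypoxia libraries and the eKD2 libraries below.

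Because the silenced cells were also hypoxic, the 6 hypoxia libraries could be set beside the 2 normoxia libraries. In 12 of 33 members tested the sets did not overlap, in 9 with hypoxia higher (CTSB, SCARB2, PSAP, GAA, GUSB, LAMP2, ATP6V1F, CTSL and TFEB) and in 3 with hypoxia lower (ATP6V0A1, ATP6V0B and ATP6V1C1), beside 37.6% of all genes tested. CTSL passed the filter only through hypoxia libraries, so its separation was favoured by the filter, and without it the counts were 8 and 3 of 32. Of the 11 members called, ATP6V0E1 was the 1 whose hypoxia libraries overlapped normoxia, at 123.8 to 193.4 FPKM against 184.3 and 193.2 FPKM.

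None of the 3 TFEB-family members was called in hypoxia. TFEB (GRCh37 chr6:41651716-41703997, minus strand) was at 2.92 and 2.13 FPKM in normoxia, at 4.77 and 4.12 in control hypoxia, at 6.77 and 5.91 in eKD1 and at 6.27 and 6.60 in eKD2. The fitted change was 0.63 ± 0.19 (SE), with an adjusted p of 0.0785 in the pairwise fit and 0.0273 in the shared fit of all 8 libraries, so the call depended on the estimate of the spread. In that shared fit 9 members were higher, with HEXA and TFEB added, and 4 were lower, beside 37.9% of all genes called. TFE3, by level the main family member, was at 26.2 and 28.1 FPKM in normoxia, at 26.8 and 25.05 in control hypoxia, at 29.8 and 23.6 in eKD1 and at 33.5 and 32.5 in eKD2 and changed by -0.07 (95% interval -0.31 to 0.18). MITF, best known as the melanocyte regulator, was at 2.58 and 2.69 FPKM in normoxia, at 3.30 and 2.43 in control hypoxia, at 3.41 and 4.03 in eKD1 and at 5.43 and 6.82 in eKD2 and changed by 0.08 (-0.44 to 0.60). Of 5 melanocyte markers, MLANA and TYR were at 0 in all libraries and 1, PMEL, exceeded 1 FPKM. PMEL was at 2.04 and 2.55 FPKM in normoxia against 4.79 and 5.03 in control hypoxia, a called rise (log2 change 0.85, adjusted p = 0.0306), and the markers summed to 2.07 to 2.66 FPKM in normoxia and 5.23 to 5.51 in control hypoxia. PMEL made up most of this sum and overlaps CDK2 on the other strand, which a library without strand marks cannot separate. The part of the markers in the MITF values was not tested. The order of level, TFE3 above TFEB above MITF, held in both libraries of control hypoxia and of eKD1. It did not hold in the second normoxia library, with MITF at 2.69 and TFEB at 2.13 FPKM. Nor did it hold in the second eKD2 library, with MITF at 6.82 and TFEB at 6.60 FPKM.

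Of 20 listed genes that act on these factors at the lysosome or are related to them, 3 were higher and 3 lower in hypoxia, a share of 30% beside 32.2% of all genes tested. RRAGD, a Rag GTPase that recruits TFEB to the lysosome, was at 6.69 and 4.50 FPKM in normoxia, at 16.2 and 15.9 in control hypoxia, at 13.4 and 11.6 in eKD1 and at 9.27 and 8.63 in eKD2 (log2 change 1.39 ± 0.20 (SE), adjusted p = 0.0189). FLCN, folliculin, which acts on RRAGD and RRAGC so that mTORC1 can phosphorylate TFEB and TFE3, was at 8.18 and 13.04 FPKM in normoxia, at 25.6 and 24.9 in control hypoxia, at 9.86 and 23.4 in eKD1 and at 14.3 and 10.3 in eKD2 (log2 change 1.21 ± 0.24 (SE), adjusted p = 0.0328). The eKD1 replicates of FLCN differed nearly as much as the control groups did, and FLCN was not called in the shared fit. MTOR, the kinase itself, was at 34.2 and 30.6 FPKM in normoxia, at 14.1 and 16.98 in control hypoxia, at 22.8 and 20.7 in eKD1 and at 18.1 and 18.8 in eKD2 (log2 change -1.02 ± 0.13 (SE), adjusted p = 0.0151). The other calls of this list were 1 higher and 2 lower.

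**Figure D3:**
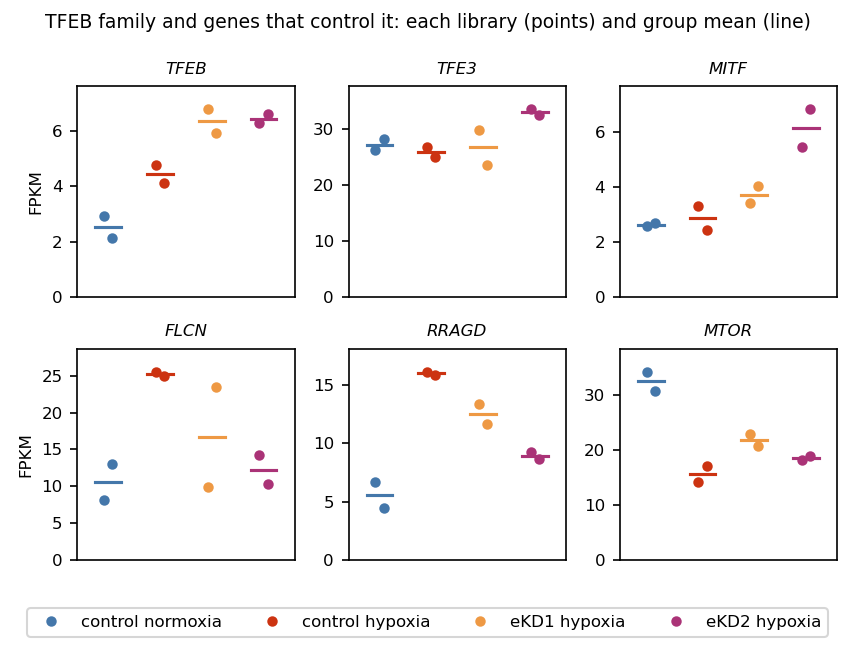
FPKM of TFEB, TFE3 and MITF (upper row) and of FLCN, RRAGD and MTOR (lower row), with a vertical axis from 0 in each panel. Points are libraries and lines are means of 2 libraries per group. TFEB is above 4 FPKM in all 6 hypoxia libraries and below 3 FPKM in normoxia, MITF is highest in eKD2, and RRAGD is at 16.2 and 15.9 FPKM in control hypoxia and below 10 FPKM in both eKD2 libraries.

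Outside the 34 members, 93 further lysosomal genes on 5 lists were tested, and 37 were called in hypoxia, 24 higher and 13 lower, beside 32.2% of all genes tested, with a median change of 0.19. In a fit of protein-coding genes only, 29 of the 93 were higher and 17 lower, beside 42.6% of all such genes. With equal FPKM totals the counts were 11 higher and 21 lower, and the median -0.03, so the direction of this larger set depended on the scaling. Other hydrolases gave the most calls, 12 higher and 3 lower of 35. CTSF, the cysteine protease cathepsin F, was at 7.80 and 4.39 FPKM in normoxia against 15.4 and 20.96 in control hypoxia, CTSV, a cathepsin closely related to CTSL, was at 17.03 and 17.9 FPKM in normoxia against 44.95 and 39.2 in control hypoxia, and MANBA, a beta-mannosidase, was at 3.82 and 2.51 FPKM in normoxia against 9.04 and 6.84 in control hypoxia (log2 changes 1.46, 1.22 and 1.11, adjusted p = 0.039, 0.00868 and 0.041). None of these overlapped between the groups. Other membrane proteins were split, 4 higher and 4 lower of 19. NPC2, a soluble cholesterol carrier placed on that list, was at 63.9 and 70.1 FPKM in normoxia against 114.3 and 128.0 in control hypoxia (log2 change 0.84, adjusted p = 0.0112), whereas CLCN7, the chloride-proton exchanger, and OSTM1, its beta subunit, fell by 0.74 and 0.72 on the log2 scale (adjusted p = 0.0195 and 0.0254). CLCN7 was at 60.7 and 59.6 FPKM in normoxia against 32.4 and 38.9 in control hypoxia and OSTM1 at 27.5 and 23.3 FPKM in normoxia against 14.3 and 15.7 in control hypoxia. In the sorting list 1 of 6 was called, GNPTG, a subunit of the enzyme that makes the mannose 6-phosphate tag, at 38.00 and 37.6 FPKM in normoxia against 48.9 and 46.5 in control hypoxia (log2 change 0.33, adjusted p = 0.0368).

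Other pump subunits and assembly factors gave 4 higher and 3 lower of 13, and several were paralogs of members. ATP6V1G3, an isoform of subunit G found mainly in kidney, was at 6.58 and 6.61 FPKM in normoxia against 0.67 and 1.73 in control hypoxia (log2 change -1.83 ± 0.29 (SE), adjusted p = 0.0217). ATP6V1G2, the isoform typical of neurons, moved the other way, from 4.29 and 3.93 FPKM to 9.03 and 9.52 (log2 change 1.01 ± 0.13 (SE), adjusted p = 0.0149). ATP6V1G2 shares its strand with a read-through transcript into DDX39B, so its reads are uncertain. CCDC115, an assembly factor of the pump, was at 11.6 and 12.7 FPKM in normoxia against 22.5 and 25.4 in control hypoxia (log2 change 0.92 ± 0.11 (SE), adjusted p = 0.014).

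The makeup of the subunits was then taken per library at the RNA level, as the share of each paralog in their summed FPKM. FPKM are per length and so can be compared between genes, and no protein was measured. ATP6V0E2, chosen for its values like the other paralogs of this paragraph, was at 29.8 and 36.6 FPKM in normoxia against 51.2 and 54.2 in control hypoxia (log2 change 0.66 ± 0.13 (SE), adjusted p = 0.0308). It made up 13.9% and 15.9% of the subunit e FPKM in normoxia and 25.1% and 26.6% in control hypoxia. The sum of both subunit e genes was 214.1 and 229.8 FPKM in normoxia and 204.0 and 203.6 FPKM in control hypoxia. ATP6V0E2 overlaps ATP6V0E2-AS1 on the other strand, which a library without strand marks cannot separate. For subunit e, one paralog was therefore lower and the other higher, with 21.4% to 31.8% of ATP6V0E2 in the silenced cells. For subunit a, 2 of the 3 expressed isoforms were called lower, ATP6V0A1 as above and ATP6V0A2, at 24.6 and 27.2 FPKM in normoxia against 16.98 and 14.04 in control hypoxia (log2 change -0.71, adjusted p = 0.0303). The third isoform, TCIRG1, was at 1.85 and 3.45 FPKM in normoxia against 6.39 and 5.34 in control hypoxia and was not called (adjusted p = 0.0758). Its share of subunit a was 3.56% and 5.08% in normoxia, 15.8% and 16.1% in control hypoxia and 9.37% to 24.4% in the silenced cells. ATP6V1G1 held 89.1% to 93.9% of subunit G in every library, and itself fell from 136.1 and 124.4 FPKM to 93.0 and 92.2 FPKM (log2 change -0.49 ± 0.067 (SE), adjusted p = 0.0167), so the opposite shifts of ATP6V1G2 and ATP6V1G3 concerned a small share of that subunit. For subunits d, B and C the member ATP6V0D1, ATP6V1B2 or ATP6V1C1 held over 94% of the sum in all libraries.

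**Figure D4:**
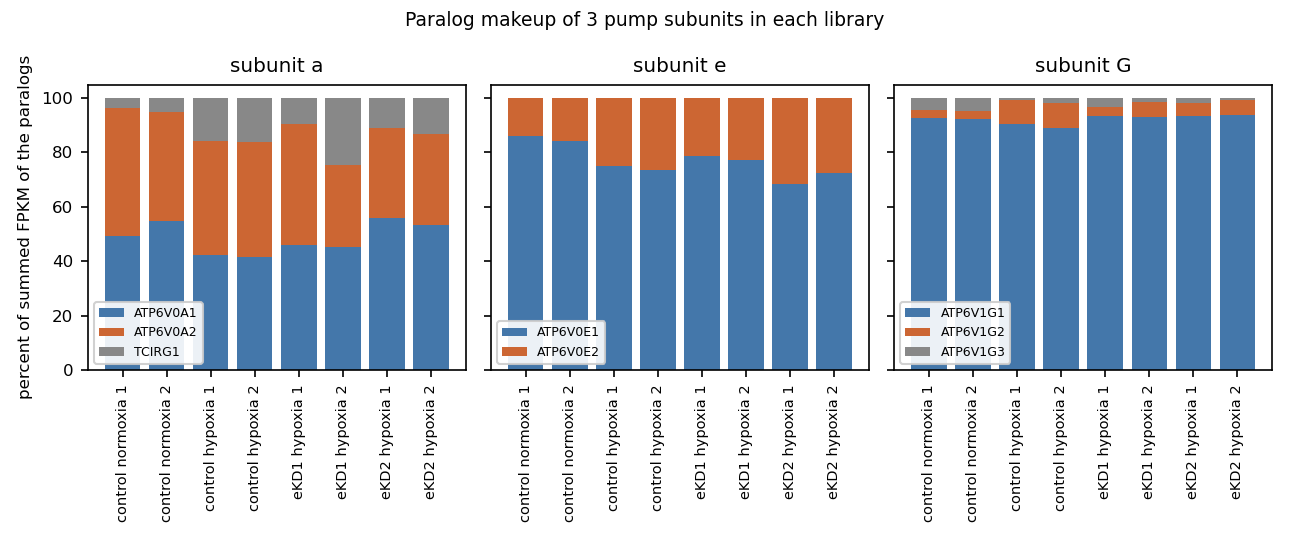
Share of each paralog in the summed FPKM of pump subunits a, e and G, in percent on the vertical axis, for each of the 8 libraries. ATP6V0A4 is at 0 and not drawn. The ATP6V0E2 share is 13.9% and 15.9% in normoxia and at least 21.4% in the 6 hypoxia libraries, and ATP6V1G1 makes up most of subunit G throughout.

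The second question was whether repression of the LOXHD1 enhancer altered these genes in hypoxia. The eKD1 and eKD2 comparisons share the 2 control hypoxia libraries, so a deviation of those libraries enters both. It also enters the comparison of hypoxia with normoxia, with the opposite sign. In eKD1 no member was called by limma, beside 0.0651% of all genes (7 of 33 members had an unadjusted p under 0.05, beside 21.7% of all genes). With the shared fit, which called 4.95% of all genes, 2 members were higher, both of the V0 sector. ATP6V0B was at 116.3 and 105.9 FPKM in control hypoxia against 144.1 and 136.2 in eKD1 (log2 change 0.33, adjusted p = 0.143 pairwise and 0.0435 shared). ATP6V0E1 was at 152.8 and 149.4 FPKM in control hypoxia against 193.4 and 186.7 in eKD1 (log2 change 0.33, adjusted p = 0.114 and 0.027). Libraries did not overlap for either gene. The median change of the 33 members was 0.12 in eKD1, beside 0.002 for all genes, and of the 12 pump members 10 had a change above 0. No gene of the 93 on the other lists was called in eKD1, with 18 at an unadjusted p under 0.05 and 2 called in the shared fit.

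In eKD2 1 member was called, lower, beside 9.61% of all genes, and 14 of 33 had an unadjusted p under 0.05, beside 32.8% of all genes. This member was ATP6V0E1, at 152.8 and 149.4 FPKM in control hypoxia against 123.8 and 126.2 in eKD2 (log2 change -0.27 ± 0.045 (SE), adjusted p = 0.0497). Its libraries stood below control hypoxia, whereas those of eKD1 stood above it. The call was at the threshold, and 8 of 13 alternatives ended it, among them every fit with a library left out. Those fits took the spread from all groups, unlike the pairwise fit. Over the 13 alternatives the log2 change was -0.34 to -0.17. The shared fit called 5 members, beside 16.9% of all genes. ATP6V0B was higher, at 134.8 and 138.6 FPKM in eKD2 (log2 change 0.30, adjusted p = 0.0745 pairwise and 0.0275 shared). CTSD was higher, at 141.1 and 155.1 FPKM in control hypoxia against 176.5 and 174.6 in eKD2 (adjusted p = 0.0959 and 0.0383), and eKD1 was at a like level of 176.1 and 178.6 FPKM without a call (shared adjusted p = 0.0647). CTSA was lower, at 51.1 and 43.6 FPKM in control hypoxia against 31.1 and 32.1 in eKD2 (log2 change -0.56, adjusted p = 0.0558 and 0.0438), while eKD1, at 48.2 and 57.4 FPKM, overlapped control hypoxia. ATP6V0E1 was lower in both fits.

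The fifth was MITF, at 3.30 and 2.43 FPKM in control hypoxia against 5.43 and 6.82 in eKD2 (log2 change 0.88 ± 0.20, adjusted p = 0.0746 pairwise and 0.0252 shared). All 3 family members had higher means in eKD2 than in control hypoxia, with changes of 0.45 for TFEB and 0.34 for TFE3 (adjusted p = 0.119 and 0.0774). In eKD1 TFEB had a change of 0.43 (adjusted p = 0.234). The summed level of 5 melanocyte markers, most of it PMEL, was 2.95 to 3.55 FPKM in eKD2, below the 5.23 to 5.51 FPKM of control hypoxia.

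The 7 members called higher in hypoxia were above both normoxia libraries in every library of the silenced cells. In eKD1 and eKD2 respectively, the change from control hypoxia was -0.17 and -0.12 for CTSB, -0.45 and -0.49 for GAA, -0.06 and -0.15 for PSAP, -0.06 and 0.18 for SCARB2, and -0.15 and -0.28 for LAMP2. For ATP6V1F the mean was 202.7 FPKM in control hypoxia, 181.0 in eKD1 and 176.5 in eKD2. For GUSB it was 95.1 FPKM in control hypoxia, 83.8 in eKD1 and 75.7 in eKD2. None of these 7 was called in either comparison or either fit, and all but SCARB2 in eKD2 had lower means than in control hypoxia. The 95% interval in eKD2 was wide for GAA (-0.96 to -0.01) and narrow for CTSB (-0.24 to 0.01). In the 13 hydrolases and activator tested, 8 in eKD1 and 10 in eKD2 had a change below 0, and the median was -0.08 and -0.16, beside 0.002 and 0.05 for all genes. Without the first eKD1 library the eKD1 median was -0.01.

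**Figure D5:**
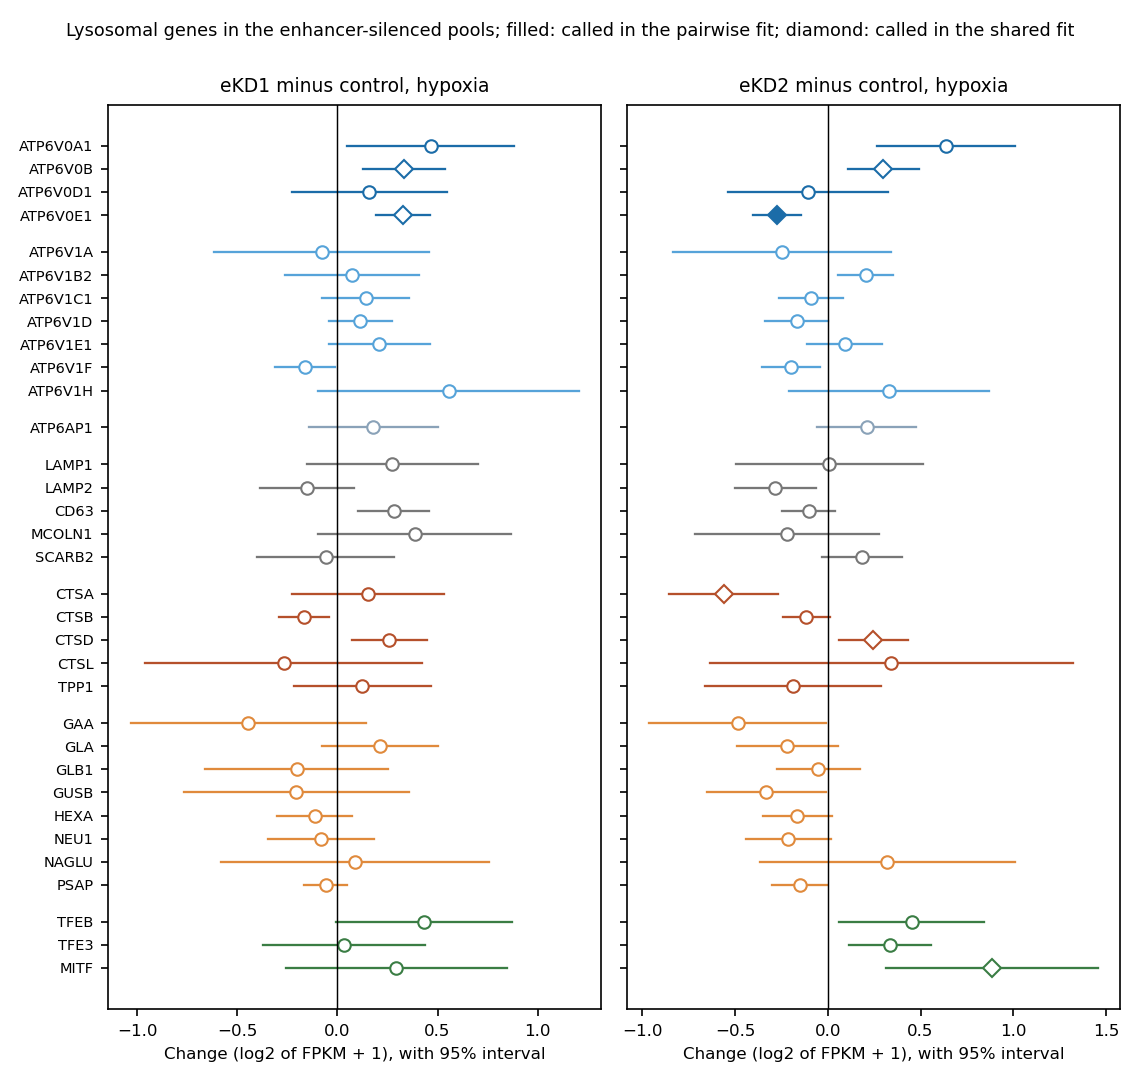
Change from control hypoxia in eKD1 (left) and eKD2 (right) for the 33 members tested, in log2(FPKM + 1) with 95% intervals from limma, coloured by role as in the plot of the hypoxia changes. The filled symbol, ATP6V0E1 in eKD2, was called in the pairwise fit, and diamonds were called in the shared fit of all 8 libraries, 2 in eKD1 and 5 in eKD2. Both panels use the same 2 control hypoxia libraries.

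On the other lists, eKD2 gave 7 calls among 93 genes, 1 higher and 6 lower, beside 9.61% of all genes. AGA, an amidase that cleaves the sugar-asparagine bond, was higher, at 42.2 and 42.9 FPKM in control hypoxia against 76.4 and 64.9 in eKD2 (log2 change 0.71 ± 0.10 (SE), adjusted p = 0.0405). RRAGD was at 16.2 and 15.9 FPKM in control hypoxia against 9.27 and 8.63 in eKD2 (log2 change -0.77 ± 0.10 (SE), adjusted p = 0.0362) and CTSV at 44.95 and 39.2 FPKM in control hypoxia against 27.2 and 24.8 in eKD2 (log2 change -0.67 ± 0.11 (SE), adjusted p = 0.0463). Both had risen in hypoxia in control cells, in a comparison that used the same 2 control hypoxia libraries. LAPTM4B, a lysosomal membrane protein, was at 202.8 and 200.6 FPKM in control hypoxia against 166.1 and 169.9 in eKD2 (log2 change -0.26, adjusted p = 0.0468). ATP6AP2, the second accessory protein of the pump, was at 185.9 and 173.0 FPKM in control hypoxia against 139.1 and 135.7 in eKD2, and M6PR, the cation-dependent mannose 6-phosphate receptor, at 170.5 and 175.7 FPKM in control hypoxia against 136.7 and 130.4 in eKD2 (log2 changes -0.38 and -0.37, adjusted p = 0.0428 and 0.0379). These 7 calls had adjusted p values from 0.0362 to 0.0468, close to the threshold, and none of the lists stood at more than 2 calls.

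The guides were also compared directly, which does not involve the control libraries. No member was called by limma between eKD2 and eKD1, beside 0.403% of all genes (7 of 33 members had an unadjusted p under 0.05, beside 23.6% of all genes), and no gene of the other lists, of which 17 had an unadjusted p under 0.05. In the shared fit, beside 9.05% of all genes, 3 members were lower in eKD2. ATP6V0E1 was at 193.4 and 186.7 FPKM in eKD1 against 123.8 and 126.2 in eKD2 (log2 change -0.60 ± 0.05, adjusted p = 0.0597 pairwise and 0.00352 shared). CTSA was at 48.2 and 57.4 FPKM in eKD1 against 31.1 and 32.1 in eKD2 (log2 change -0.72, adjusted p = 0.0894 and 0.0338). ATP6V1D was at 155.9 and 148.4 FPKM in eKD1 against 120.8 and 129.2 in eKD2 (log2 change -0.28, adjusted p = 0.127 and 0.0386). For ATP6V0E1 the eKD1 libraries were above control hypoxia and the eKD2 libraries below it, and for CTSA the eKD1 libraries overlapped control hypoxia.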

How the data were processed

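RNA-seq of 8 SK-N-MC libraries in 4 groups of 2 was analysed. The authors deposited 1 table of FPKM values for 60332 genes, made with STAR on GRCh37 and Cuffnorm from poly-A libraries read from a single end, without strand marks, and tested read counts from what they describe as biological duplicates with DESeq2. Those counts were not used here. FPKM were therefore taken as deposited, 1 was added, and log2 values were tested with limma 3.58.1 (R 4.3.3, two-sided, variance trend) on the 2 groups compared, over the 15372 genes that reached 1 FPKM in 2 or more libraries, with Benjamini-Hochberg adjustment and a call at 0.05. The shared fit took the spread from all 8 libraries. FPKM keep no counting error, and how Cuffnorm scaled the libraries is not given in the sources used here, so a median-of-ratios scaling and equal totals were tried, with other filters, pseudocounts and left-out libraries. The script was tested on simulated data. With 2 libraries a group, an exact permutation test cannot fall below 0.333, so only the fit across genes was used.

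The members and lists were chosen with earlier results of these data known. Every library is given for members called without overlap, for the TFEB family and for the highest member of each role; of the other lists, up to 3 called genes per list and comparison with the largest change are named. 1 gene of these lists that was called in eKD2 is not reported here. Gene positions are from GENCODE v44 on GRCh37, which matched 98.7% of tested genes, and promoters from RefSeq (GRCh38.p14). Many other genes named here also overlap a gene on the other strand, among them SCARB2 (FAM47E), FLCN (MPRIP), CTSA (PLTP) and M6PR (PHC1). Reads of such pairs could not be separated. Figures were drawn with matplotlib.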

Additional observations from a re-analysis of the deposited data

How the results depend on the processing

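Of the 11 members called in hypoxia, 8 were called in all 13 alternatives (ATP6V0B, ATP6V1C1, ATP6V1F, LAMP2, SCARB2, CTSB, GAA and PSAP). The changes of these 11 kept their sign in all 13, whereas uncalled changes near 0 in the TFEB family did not (MITF in hypoxia -0.10 to 0.24, TFE3 in eKD1 -0.13 to 0.20, TFEB between the guides -0.07 to 0.10). With 4 members lower in hypoxia, equal FPKM totals gave 9, and the replicate block and the fit with no variance trend gave 2 each. Fits with a library left out took the spread from all 4 groups, so they compare with the shared fit, not the pairwise one. On the other lists the shared fit of all 8 libraries called 27 genes higher and 13 lower in hypoxia. The 37 calls on the other lists became 10 with no filter, 20 with the replicate block, 23 with no variance trend and 20 to 29 with a library left out (20 and 22 without the first or second control hypoxia library). In eKD1, the shared fit gave 2 members higher and 2 other genes, and a fit of protein-coding genes only gave 1 other gene. In eKD2, where none was higher, equal totals, the shared fit and protein-coding genes gave 3 each; the 1 lower became 2 with a mean of at least 5 FPKM, median-of-ratios scaling, the shared fit and protein-coding genes, and 0 with no filter, equal totals, the replicate block, no variance trend and every left-out library (0 to 0). The 7 other genes called in eKD2 became 1 with no filter, 12 in the shared fit, 16 among protein-coding genes, 0 with the replicate block and with no variance trend, and 0 to 1 with a library left out. Between the guides, where no member and no other gene was called, a mean of at least 5 FPKM gave 1 of each, median-of-ratios scaling 1 other gene, the shared fit 3 and 5, protein-coding genes 2 and 2, and a left-out library 1 member and 0 to 1 other genes. The cause was not tested. In eKD2 the share of higher genes among all calls was 60.3% as deposited, 46.3% with median-of-ratios scaling and 77.5% with equal totals.

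Replicate numbers are shared between groups, but deviations of same-numbered libraries correlated at only -0.057 to 0.126, so they were not treated as pairs. The block left 7 members higher and 2 lower in hypoxia and none called in eKD1, eKD2 or between the guides. Members near 1 FPKM, such as CTSL, could not be resolved at this depth, and 2 libraries a group limit every comparison.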
